A study of Mus musculus with 6 samples.

Results

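The 32 genes described here encode the enzymes and transporters of glycolysis and the target genes of the response to low oxygen. They were chosen by name with earlier results of these data known, as was the list of other pathway genes used below. Counts of members called are therefore not independent of these data. All 32 were matched to the count tables by Ensembl ID and measured in every library, out of 14450 genes listed in all 6 tables. Of the 32 genes, 17 belong to glycolysis (Slc2a1, Hk1, Hk2, Gpi1, Pfkp, Pfkl, Pfkfb3, Aldoa, Tpi1, Gapdh, Pgk1, Pgam1, Eno1, Pkm, Ldha, Ldhb and Slc16a3). Another 12 are hypoxia targets (Hilpda, Ddit4, Bnip3, Bnip3l, Ndrg1, Egln3, Egln1, Ankrd37, Pdk1, Adm, P4ha1 and P4ha2), and Hif1a, Txnip and Mif make up the remaining 3.

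The bladder mucosal layer of wild-type C57BL/6 mice at 8 weeks of age was dissociated and sequenced as single cells with a droplet-based 3′ assay. Healthy mice were compared with mice taken 48 h after CPP (cyclophosphamide, a drug whose breakdown products injure the bladder lining), called acute. They were also compared with mice given 4 rounds of CPP and labelled as day 11, called chronic. By the study's description the chronic mice were taken 48 h after the last round, and each of their doses was lower than the acute dose. Each condition was represented by 2 libraries, numbered 1 and 2. No transgene or deletion was carried by any group. The libraries and not the cells were treated as the replicates.

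Glycolysis splits glucose into pyruvate in the cytoplasm. Glucose enters through transporters such as Slc2a1 (GLUT1), is trapped by hexokinases, and leaves as lactate once lactate dehydrogenase has reduced pyruvate and the Slc16a3 carrier (MCT4) has exported it. When oxygen is scarce, the prolyl hydroxylases Egln1 and Egln3 stop marking the transcription factor HIF-1α, the product of Hif1a, for destruction, and the stabilised factor binds promoters that hold the core letters ACGTG or GCGTG. The urothelium that lines the bladder is layered, with Krt5-positive basal cells on the basement membrane above the vascularised stroma, intermediate cells over them and large superficial umbrella cells facing the urine.

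Promoters are shown for the members that differed most between urothelial layers (Slc16a3, Adm, Hk2 and Hif1a), for the lactate dehydrogenase pair Ldha and Ldhb, which differed in opposite directions, and for P4ha2, the member with the largest difference between stroma and urothelium. Each is the RefSeq stretch from 250 bases before to 50 bases after the annotated start, on build GRCm38.p6, printed 5′ to 3′ along the gene's own strand. Ldha has 2 such windows in RefSeq, and the one with more ACGTG is printed. Capitals mark ACGTG and GCGTG and, where the motif lies on the other strand, CACGT and CACGC.
Slc16a3 promoter, chr11:120948817-120949116, plus strand: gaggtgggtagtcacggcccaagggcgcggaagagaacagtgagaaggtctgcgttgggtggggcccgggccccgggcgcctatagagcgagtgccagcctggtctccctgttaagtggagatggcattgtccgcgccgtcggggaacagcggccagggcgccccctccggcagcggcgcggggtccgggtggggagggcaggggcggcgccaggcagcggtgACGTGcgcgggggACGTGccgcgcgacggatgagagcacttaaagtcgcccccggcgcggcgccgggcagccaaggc
Hk2 promoter, chr6:82774405-82774704, minus strand: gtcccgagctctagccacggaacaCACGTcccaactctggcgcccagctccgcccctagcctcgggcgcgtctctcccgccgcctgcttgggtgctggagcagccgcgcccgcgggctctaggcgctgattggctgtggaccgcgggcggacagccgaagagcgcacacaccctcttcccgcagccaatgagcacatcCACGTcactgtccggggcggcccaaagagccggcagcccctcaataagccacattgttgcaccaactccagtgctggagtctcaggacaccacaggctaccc
Hif1a promoter, chr12:73907617-73907916, plus strand: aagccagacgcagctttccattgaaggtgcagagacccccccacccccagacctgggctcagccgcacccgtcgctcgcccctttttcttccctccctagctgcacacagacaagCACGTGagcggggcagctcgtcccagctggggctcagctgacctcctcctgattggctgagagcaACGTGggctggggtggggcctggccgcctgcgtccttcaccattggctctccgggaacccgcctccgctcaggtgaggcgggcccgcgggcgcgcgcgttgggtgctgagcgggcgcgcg
Adm promoter, chr7:110627407-110627706, plus strand: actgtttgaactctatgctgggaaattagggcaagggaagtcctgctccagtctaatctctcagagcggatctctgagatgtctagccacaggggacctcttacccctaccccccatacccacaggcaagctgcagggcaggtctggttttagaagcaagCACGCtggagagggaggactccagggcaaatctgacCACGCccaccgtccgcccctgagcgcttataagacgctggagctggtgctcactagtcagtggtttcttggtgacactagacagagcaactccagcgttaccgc
Ldha promoter, chr7:46845554-46845853, plus strand: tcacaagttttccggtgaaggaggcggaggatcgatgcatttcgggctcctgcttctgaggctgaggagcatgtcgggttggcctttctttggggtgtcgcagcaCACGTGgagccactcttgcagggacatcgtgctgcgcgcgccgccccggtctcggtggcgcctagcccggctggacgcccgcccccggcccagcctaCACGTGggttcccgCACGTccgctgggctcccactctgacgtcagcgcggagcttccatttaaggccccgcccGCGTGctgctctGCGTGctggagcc
Ldhb promoter, chr6:142507908-142508207, minus strand: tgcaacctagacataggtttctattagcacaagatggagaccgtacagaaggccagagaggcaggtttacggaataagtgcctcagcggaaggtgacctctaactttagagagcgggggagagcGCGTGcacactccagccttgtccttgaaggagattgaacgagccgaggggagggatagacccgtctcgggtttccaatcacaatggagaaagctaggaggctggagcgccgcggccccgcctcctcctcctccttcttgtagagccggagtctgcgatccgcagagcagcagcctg
P4ha2 promoter, chr11:54100674-54100973, plus strand: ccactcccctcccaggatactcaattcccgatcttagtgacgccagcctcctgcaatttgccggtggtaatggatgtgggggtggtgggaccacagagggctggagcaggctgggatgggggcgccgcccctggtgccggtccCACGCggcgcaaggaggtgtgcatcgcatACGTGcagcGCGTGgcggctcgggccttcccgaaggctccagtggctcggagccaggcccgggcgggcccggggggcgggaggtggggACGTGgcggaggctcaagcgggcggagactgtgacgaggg
For Slc16a3, Hif1a, Ldha and P4ha2 the RefSeq start lies inside a longer gene model of the GENCODE annotation, and 3′ tags do not show which start was used.

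The printed Ldha window held 5 matches to ACGTG and 2 to GCGTG over both strands, where the 6 letters CACGTG count once on each strand, and its other RefSeq window, chr7:46846832-46847131, held 0 and 2. The Ldhb promoter held no ACGTG and 1 GCGTG, and the Adm promoter no ACGTG and 2 GCGTG. RefSeq windows were found for 30 of the 32 members, with Bnip3l and Ndrg1 unmatched. ACGTG was present in 21 of these 30 (70.0%), GCGTG in 20 (66.7%) and either in 28 (93.3%), with a gene of several windows counted where any of them held the letters. Over all 27025 genes with a window of the same length, counted in the same way, the shares were 21.8%, 35.2% and 46.7%. These matches are letters in a window and were not measured as bound sites.

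The tables held 5348 to 15062 cell barcodes per library at a median of 5530 to 9138 UMIs (unique molecular identifiers, 1 per captured mRNA). Cells that passed the filters were clustered without the 32 genes among the features, and 50011 remained once called doublets and doublet-rich clusters had been removed. Between any 2 libraries at most 2.28% of the smaller library's barcodes were shared. Urothelial cells outnumbered the others, and the classes carried their defining markers: the summed level of the basal markers was 5040 to 8363 in basal cells against 411 to 892 in superficial cells, and that of the superficial markers 21378 to 32005 against 4210 to 5999. Basal and intermediate cells were divided where a basal and a luminal marker score were equal, and 2436 of their 30567 cells (7.97%) lay within 0.1 of that line. The layer of these cells is uncertain, and whether the layers form a continuum was not tested. Levels are given throughout as CPM, a gene's UMIs in a class of a library scaled to a total of 1000000, and fold changes as log2 values with their standard error (SE) from a fit of all genes in edgeR (quasi-likelihood F test, p-values adjusted by the Benjamini-Hochberg method). By the study's description the libraries of a condition are biological replicates and several mice were used per condition. No library is tied to an animal, so the p-values measure no spread between animals. Between conditions they measure the spread between libraries. Between classes, where library is a block in the fit, they measure the spread of the class differences over libraries.

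Across the urothelium more members were lower than higher in the superficial layer. Of the 31 members tested between superficial and basal cells, 19 were lower and 6 higher in superficial cells, whereas 32.4% of all 11989 genes tested were lower and 32.9% higher. The median log2 fold change was -0.48 over the members and 0.01 over all genes. The largest falls were those of the lactate exporter Slc16a3, the peptide hormone gene Adm, the hexokinase Hk2, Hif1a and the glucose transporter Slc2a1, whereas the enzymes in the middle of the pathway from Gpi1 to Pkm had log2 fold changes no larger than the -0.54 of Pfkl, apart from the regulatory enzyme Pfkfb3 at -1.25. In 11 members (Slc2a1, Hk1, Hk2, Pfkl, Slc16a3, Bnip3, Egln3, Egln1, Pdk1, Adm and Hif1a) the level fell from basal to intermediate and again to superficial cells in each of the 6 libraries. In 1, Ldhb, it rose at both steps in each. How many of all genes fell or rose in this way was not counted, so these counts are not set against a background.

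**Figure D1:**
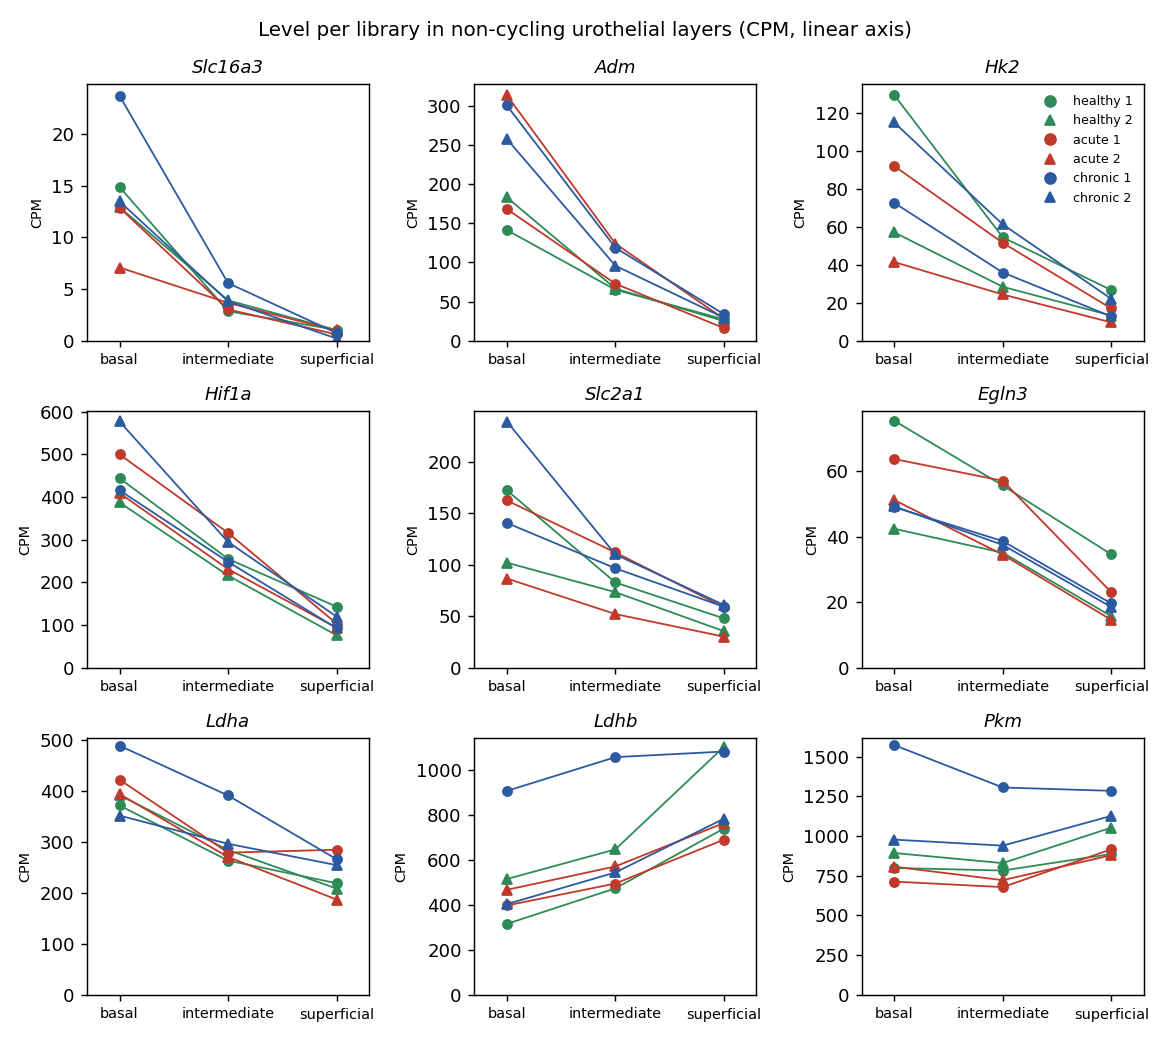
Level (CPM, linear vertical axis from 0) of 9 members in non-cycling basal, intermediate and superficial cells. Each line joins the layers of 1 library, with color for the condition and marker shape for the replicate number. Slc16a3, Adm, Hk2, Hif1a, Slc2a1 and Egln3 step down in all 6 libraries, Ldhb steps up in all 6, and Pkm is at 712.9 to 1572 CPM in basal and 878.6 to 1284 CPM in superficial cells.

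At the point of glucose entry, Slc2a1 was at 86.7 to 239.3 CPM in basal cells (median 151.7), 52.1 to 112.0 CPM in intermediate cells and 30.2 to 61.0 CPM in superficial cells (median 53.4). The basal and superficial ranges did not overlap, and the log2 fold change was -1.45 ± 0.08 (adjusted p = 2e-12, edgeR). The hexokinases, which phosphorylate glucose so that it stays in the cell, were lower as well. Hk2 had 41.5 to 129.7 CPM in basal cells (median 82.5) and 9.57 to 26.7 CPM in superficial cells (median 15.1), a log2 fold change of -2.18 ± 0.09 (adjusted p = 5.9e-15). Hk1, the more widely expressed isoform, had 56.0 to 88.8 CPM against 25.5 to 42.1 CPM, a smaller log2 difference of -1.03 ± 0.07 (adjusted p = 2.9e-11). Neither gene's ranges overlapped between the layers.

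Of the enzymes that follow, Pfkl, the liver-type phosphofructokinase at the committed step, had 36.3 to 63.3 CPM in basal and 24.2 to 34.3 CPM in superficial cells (log2 fold change -0.54 ± 0.07, adjusted p = 5.8e-07). Pfkfb3, which makes the activator of that step, was scarce and was the exception to the smaller differences of these steps, with 2.20 to 19.3 CPM in basal and 0.486 to 5.91 CPM in superficial cells (log2 fold change -1.25 ± 0.26, adjusted p = 0.00022). Gpi1, the isomerase before it, was lower by a log2 value of -0.22 ± 0.06, a call lost without acute 2. Aldoa (aldolase), Tpi1 (triosephosphate isomerase), Gapdh (glyceraldehyde-3-phosphate dehydrogenase) and Pkm (pyruvate kinase) were called higher in superficial cells, with log2 fold changes of 0.33 ± 0.10, 0.26 ± 0.06, 0.28 ± 0.09 and 0.29 ± 0.07. For these 4 the direction in CPM was mixed or nearly so: Aldoa and Gapdh were higher in 3 of 6 libraries, Tpi1 in 4 and Pkm in 5. Scaled by library size only, which shifted the median of all genes by -0.16 in this comparison, none of these 4 passed (log2 values of 0.18, 0.10, 0.13 and 0.13), and the split of the members became 2 higher and 19 lower. Under that scaling 37.4% of the calls over all genes were higher, against 50.4% with TMM (trimmed mean of M-values), the scaling used elsewhere. Pfkp, Pgk1, Pgam1 and Eno1 did not pass the test, with log2 values of 0.10, -0.15, 0.09 and 0.07.

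The pathway's exit carried opposite differences. Ldhb, which encodes the lactate dehydrogenase subunit of oxidative tissues, had 316.2 to 908.5 CPM in basal cells (median 436.2) and 691.4 to 1105 CPM in superficial cells (median 775.1). It was higher in superficial cells in 6 of 6 libraries, with a log2 fold change of 1.00 ± 0.09 (adjusted p = 4.8e-09), although the 2 ranges overlapped through the basal value of chronic 1. Ldha, which encodes the subunit favoured when pyruvate is turned to lactate, had 351.5 to 488.6 CPM in basal and 186.9 to 284.5 CPM in superficial cells, 2 ranges that did not overlap. Its log2 fold change was -0.62 ± 0.08 (adjusted p = 4.5e-07). Slc16a3, the lactate exporter, had 7.08 to 23.7 CPM in basal cells (median 13.2), 2.84 to 5.57 CPM in intermediate cells and 0.195 to 1.03 CPM in superficial cells. The log2 fold change of -4.06 ± 0.29 (adjusted p = 5.2e-11) was the lowest of the 31 members tested and rested on 365 UMIs in basal and 20 UMIs in superficial cells, with 1 to 6 UMIs per superficial library.

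The hypoxia targets declined as a group, with 8 of 11 tested members lower, 1 higher and 2 not past the threshold. Adm, which encodes the vasodilator peptide adrenomedullin, had 141.5 to 314.3 CPM in basal cells (median 220.9), 65.1 to 124.2 CPM in intermediate cells and 16.0 to 33.8 CPM in superficial cells (median 27.4). No 2 of the 3 layers overlapped, and the log2 fold change from basal to superficial cells was -2.96 ± 0.11 (adjusted p = 9.9e-16). Hilpda, a lipid-droplet protein, had 723.1 to 1588 CPM in basal and 418.9 to 558.2 CPM in superficial cells (log2 fold change -0.90 ± 0.09, adjusted p = 3.2e-08). Its step from basal to intermediate cells had a log2 value of -0.21 ± 0.09 and did not pass, though the level was lower in 5 of 6 libraries, and its step from intermediate to superficial cells was -0.68 ± 0.09, lower in 6 of 6. The difference between the steps was not tested.

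Among the remaining hypoxia targets, Pdk1, the kinase that closes the route from pyruvate into mitochondria, had 37.2 to 63.7 CPM in basal and 14.4 to 41.8 CPM in superficial cells, ranges that overlapped through healthy 1, with a log2 fold change of -0.92 ± 0.09. Bnip3, a mitophagy receptor, was lower by -0.88 ± 0.09, Ddit4 (REDD1, an inhibitor of mTORC1) by -0.80 ± 0.13 and P4ha1, a collagen prolyl hydroxylase, by -0.39 ± 0.16 (log2 values). The P4ha1 call was lost under 6 alternatives, among them leaving out healthy 1, acute 1 or chronic 2. Bnip3l, the close relative of Bnip3, was the 1 member called higher, by 0.28 ± 0.06, and in 5 of 6 libraries. Ankrd37 did not pass (-0.13 ± 0.20), and P4ha2 was too scarce to test, at 0 to 1.94 CPM in basal and 0 to 1.13 CPM in superficial cells.

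Ndrg1, a stress-responsive gene of differentiating epithelia, fell at the first step and rose at the second. It had 60.0 to 177.9 CPM in basal cells, 35.4 to 74.1 CPM in intermediate cells and 64.3 to 147.7 CPM in superficial cells. It fell from basal to intermediate cells by 0.78 ± 0.18 on the log2 scale (adjusted p = 0.0016) and was higher again in superficial than in intermediate cells by 1.00 ± 0.18 (adjusted p = 7.8e-05), while superficial and basal cells did not differ past the threshold (0.22 ± 0.19).

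Hif1a itself fell at both steps, with 387.4 to 577.3 CPM in basal cells (median 430.1), 216.2 to 316.2 CPM in intermediate cells and 76.1 to 143.0 CPM in superficial cells (median 98.6). The 3 ranges did not overlap, and the log2 fold change was -1.97 ± 0.08 (adjusted p = 6.4e-15). The 2 hydroxylases that mark its product for removal were lower too. Egln3, itself a target of the factor, had 42.4 to 75.4 CPM in basal and 14.6 to 34.6 CPM in superficial cells (-1.27 ± 0.09, adjusted p = 3.8e-11), and Egln1 had 21.4 to 41.2 CPM against 16.7 to 25.6 CPM (-0.48 ± 0.08, adjusted p = 1.9e-05). Of the 2 other members, Mif, a cytokine and HIF target, was lower by -0.29 ± 0.08, and Txnip, which curbs glucose uptake, by -0.48 ± 0.09 (log2 values).

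**Figure D2:**
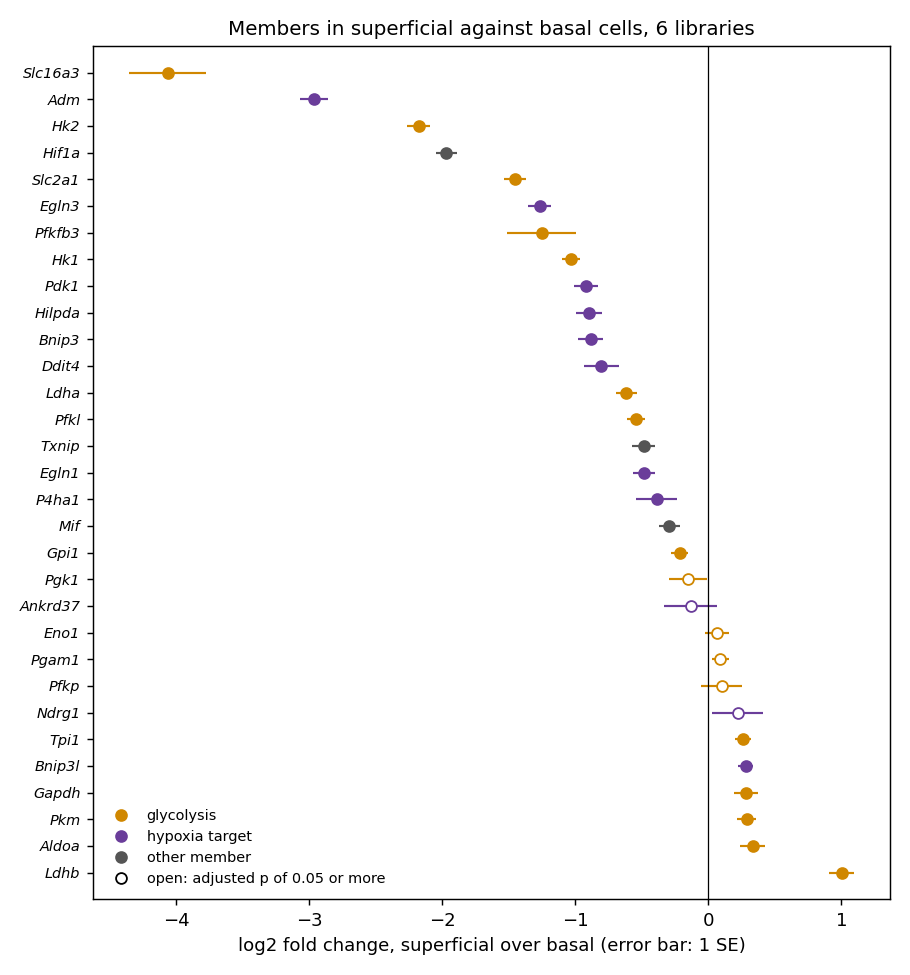
Log2 fold change of 31 members in superficial over basal cells from 6 libraries, with 1 SE as the error bar. Filled points passed an adjusted p of 0.05. The points run from Slc16a3 at -4.06 to Ldhb at 1.00, with 19 filled points below 0 and 6 above.

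By step, intermediate cells had 15 members lower and 2 higher than basal cells, of 31 tested, where 21.0% of all genes tested were lower and 20.1% higher. The 2 higher ones were Ldhb (0.43 ± 0.09) and Tpi1 (0.16 ± 0.06), whose call was lost under 5 alternatives. Scaled by library size only, the split became 1 higher and 19 lower, with 34.4% of the calls over all genes higher against 48.9% with TMM. Superficial cells had 16 lower and 7 higher than intermediate cells, against 27.0% and 27.6% of all genes. The 7 were Ndrg1, Ldhb, Pkm, Gapdh, Aldoa, Bnip3l and Eno1, with log2 fold changes of 1.00, 0.57, 0.34, 0.26, 0.24, 0.23 and 0.22. The calls of Aldoa and Eno1, each higher in 4 of 6 libraries, were lost under 9 and 7 of the alternatives, DESeq2 among them. Scaled by library size only, this split became 4 higher and 18 lower, with 39.0% of the calls over all genes higher against 50.6% with TMM.

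As modules, the hypoxia targets and the glycolysis genes differed in how far their decline depended on the summary. The mean of log2(CPM + 1) over the 12 hypoxia targets was lower in superficial than in basal cells by -0.83 ± 0.09 (SD over 6 libraries), and their summed CPM by a log2 ratio of -0.89 ± 0.23, lower in 6 of 6 libraries both ways. For the 17 glycolysis genes the mean of the log2 values was lower by -0.585 ± 0.142, in 6 of 6 libraries. Their summed CPM, which the abundant Gapdh, Pkm, Aldoa and Ldhb dominate, differed by a log2 ratio of 0.038 ± 0.201, higher in 4 and lower in 2. Summed over the module, glycolysis transcripts stood at 4059 to 6726 CPM in basal and 4409 to 5526 CPM in superficial cells, and hypoxia targets at 1514 to 2438 CPM and 834 to 1072 CPM.

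**Figure D3:**
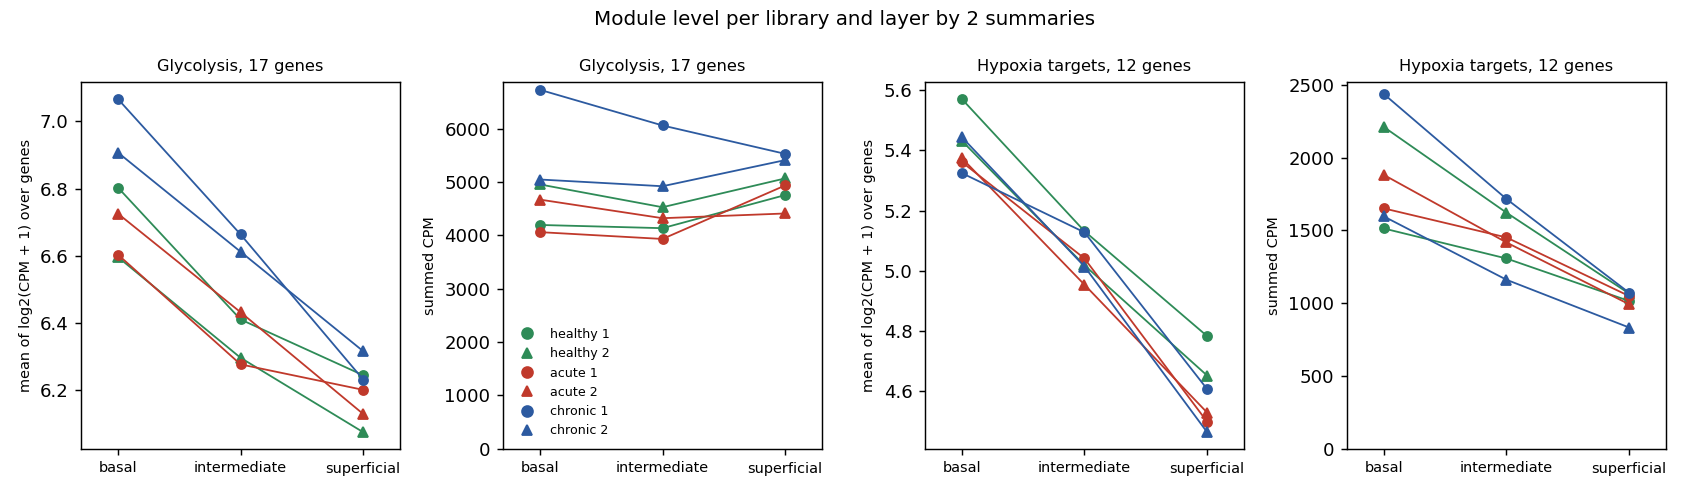
Level of the 17 glycolysis genes and the 12 hypoxia targets in 3 urothelial layers, as the mean of log2(CPM + 1) over genes and as summed CPM. Each line is 1 library. The hypoxia targets fall in both panels, the glycolysis mean falls, and the glycolysis sum ends at 4409 to 5526 CPM in superficial cells after 4059 to 6726 CPM in basal cells.

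Other genes of the pathway, a list of 60 that are no members and of which 54 were measured, had no such one-sided split between layers: 14 were lower and 17 higher in superficial than in basal cells, of 47 tested. Vegfa, a textbook HIF target that encodes the endothelial growth factor, had 65.8 to 172.7 CPM in basal and 10.8 to 28.7 CPM in superficial cells, without overlap (log2 fold change -2.39 ± 0.10, adjusted p = 1.71e-14). The largest rises were Tfrc, the transferrin receptor, at 2.09 ± 0.17, and Hmox1, heme oxygenase, at 1.23 ± 0.13. Between intermediate and basal cells the list had 10 higher and 9 lower, with Vegfa at -0.99, G6pdx at 0.39 and Hmox1 at 0.60. Between superficial and intermediate cells 12 were higher and 17 lower, with Pdk4 at -1.67, Mt1 at 0.64 and Tfrc at 1.42.

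The dissociation-stress genes, a list of transcripts that tissue handling induces, moved with the same layers: their summed level was 13255 to 20045 CPM in basal, 9877 to 12488 CPM in intermediate and 7423 to 10056 CPM in superficial cells. Their part in the layer differences was not tested.

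Cycling and non-cycling cells of the basal and of the intermediate layer differed in a minority of the members. Cycling superficial cells, 147 to 576 in the acute and chronic libraries and 17 in each healthy one, were not compared. In basal cells 3 members were higher and 8 lower in cycling cells, of 31 tested, against 12.1% and 11.7% of all genes tested. In intermediate cells 3 were higher and 2 lower of 32, against 5.15% and 5.48%. Scaled by library size only, the splits became 4 higher and 6 lower in basal and 4 and 0 in intermediate cells, with 62.9% and 74.9% of the calls over all genes higher against 50.8% and 48.4% with TMM, and DESeq2 gave 3 and 4, and 2 and 0. Ddit4 was higher in cycling cells of both layers, by 0.63 ± 0.13 in basal (adjusted p = 0.00034) and 0.64 ± 0.12 in intermediate cells (adjusted p = 0.00011). Ldha was higher by 0.25 ± 0.07 and 0.28 ± 0.06, in 6 of 6 libraries each, Gapdh by 0.24 ± 0.06 in basal cells and Adm by 0.31 ± 0.08 in intermediate cells (log2 values). The Adm call turned to -0.26 with each cell assigned by its highest marker score (marker-score classes) and was lost under 5 other alternatives, DESeq2 among them. The 8 that fell in cycling basal cells were Hilpda (-0.50 ± 0.08), Egln3, Pdk1, Aldoa (-0.38 ± 0.07), Bnip3, Pfkl, Hk1 and Slc2a1. Aldoa (-0.21 ± 0.06) and Gpi1 (-0.19 ± 0.06) fell in cycling intermediate cells, calls lost under 5 and 11 alternatives. None of these calls was kept with condition in place of library as the covariate, a fit in which 0 members passed in either layer. Without acute 1 the 11 calls in basal cells became 5, and without healthy 1, healthy 2 or chronic 2 the 5 calls in intermediate cells became 3.

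Of the other pathway genes, 3 were higher and 8 lower in cycling basal cells, of 46 tested, and 1 was higher and 4 lower in cycling intermediate cells, of 50. The named ones were Bhlhe40 (-0.73), Pdk2 (-0.60), Pdk3 (0.38) and Cited2 (0.40) in basal cells and Mxi1 (-0.35) and Pdha1 (-0.34) in intermediate cells.

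Between cell types the members differed in both directions, often within 1 enzymatic step. Fibroblasts had 9 members higher and 15 lower than non-cycling urothelial cells, of 31 tested, where 33.6% of all genes were higher and 37.9% lower. Myofibroblasts had 7 higher and 14 lower (31.3% and 38.0% of all genes), macrophages 7 and 15 (23.3% and 36.9%), endothelial cells 6 and 14 (20% and 29.4%) and NK and T cells 3 and 4 (9.02% and 16.1%). The 7 calls in NK and T cells became 0 without acute 2, 4 without healthy 1 and 3 without chronic 1. Ankrd37 was too scarce to test in this fit. The class called macrophages held summed macrophage markers at 12682 to 24828 CPM and summed markers of MHC class II antigen-presenting cells at 30627 to 67141 CPM. Macrophages and other antigen-presenting cells were not separated in it. With the RLE scaling (relative log expression), which shifted the median of all genes upward by 0.19 to 0.27, the splits became 10 and 11 in fibroblasts, 12 and 13 in myofibroblasts, 11 and 12 in macrophages, 9 and 9 in endothelial cells and 4 and 0 in NK and T cells. With RLE 56.3%, 57.2%, 53.4%, 57.9% and 71.3% of the calls over all genes were higher in these classes, in the same order, against 47.0%, 45.1%, 38.7%, 40.5% and 35.9% with TMM. The members with the larger differences are described next.

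The urothelial RNA that other cells' barcodes carry was measured beside these values. The summed level of 10 urothelial markers was 4.64% to 35.7% of the urothelial level in fibroblasts (median 18.5%), 4.89% to 29.5% in myofibroblasts, 13.9% to 35.6% in macrophages, 12.7% to 67.9% in endothelial cells and 39.0% to 75.4% in NK and T cells. NK and T cells reached 20 cells in only 3 libraries (healthy 1, healthy 2 and acute 2). A member that is lower in another class cannot be told from this background where its level is at or under these shares. Hilpda in fibroblasts stood at 9.78% to 46.3% of its urothelial level, above the marker share in 3 of 6 libraries, and Ldhb at 8.19% to 35.4%, above it in 5 of 6.

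Hk2, the inducible hexokinase, was higher in the stroma than in the urothelium. It had 25.3 to 63.0 CPM in urothelial cells, 141.7 to 781.4 CPM in fibroblasts and 141.8 to 847.5 CPM in myofibroblasts. Both stromal ranges lay wholly above the urothelial one, with log2 fold changes of 3.08 ± 0.26 (adjusted p = 6.5e-12) and 3.21 ± 0.27 (adjusted p = 3.2e-12). Macrophages, at 48.8 to 218.3 CPM, were higher by 1.61 ± 0.27, and endothelial cells, at 0 to 72.3 CPM, lower by -1.28 ± 0.47 (adjusted p = 0.024). The endothelial value rested on 24 UMIs, and its call was lost with RLE factors, with library size only, without the library block and without healthy 2, acute 1 or acute 2. Hk1 went the other way in macrophages (-1.39 ± 0.19) and in myofibroblasts (-0.62 ± 0.15).

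At the committed step the platelet-type and liver-type phosphofructokinases differed in opposite directions in fibroblasts, myofibroblasts and macrophages. Pfkp had 3.93 to 6.73 CPM in urothelial cells, 15.6 to 21.7 CPM in fibroblasts, 7.21 to 40.4 CPM in myofibroblasts and 25.2 to 65.0 CPM in macrophages, above the urothelial range in every library of the 3 classes. Its log2 fold changes were 1.62 ± 0.19, 1.66 ± 0.21 and 2.81 ± 0.23, with 1.80 ± 0.37 in endothelial and 2.11 ± 0.41 in NK and T cells. Pfkl had 29.4 to 44.0 CPM in urothelial cells and 9.73 to 57.0 CPM in fibroblasts, where chronic 2, a library with 34 fibroblasts and, at 35.7%, the highest urothelial marker share in this class, held the highest value. It was lower by -1.41 ± 0.18 in fibroblasts, -1.24 ± 0.20 in myofibroblasts and -0.69 ± 0.22 in macrophages. The macrophage value rested on 62 UMIs, and its call was lost with DESeq2, RLE factors, marker-score classes and without healthy 2. In endothelial cells Pfkl had 42.5 to 62.5 CPM, higher in 5 of 5 libraries, with a log2 fold change of 0.10 ± 0.25 that did not pass. Pfkfb3 was highest in endothelial cells, at 27.8 to 125.1 CPM against 1.84 to 9.68 CPM in urothelial cells (3.52 ± 0.35, adjusted p = 7.5e-10), and was higher in macrophages (2.89 ± 0.33), fibroblasts (1.67 ± 0.27) and myofibroblasts (1.14 ± 0.30) as well.

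Taken over all layers, the urothelium held more of Slc2a1 at entry and of Ldhb before exit, and less of the exporter Slc16a3 than the stroma. Slc16a3 differed between layers, with a mean of 14.16 CPM in basal and 0.754 CPM in superficial cells. Its basal mean lay above the fibroblast range and inside the myofibroblast range given below. Single layers were not tested against the stroma. Slc2a1 had 55.5 to 119.1 CPM in urothelial cells and 9.62 to 73.3 CPM in fibroblasts (-2.15 ± 0.19, adjusted p = 1e-11), and Ldhb 482.6 to 1058 CPM against 42.4 to 356.4 CPM (-2.28 ± 0.22, adjusted p = 9.1e-11). Ldhb was lower by -2.24 in myofibroblasts, -1.66 in macrophages and -1.61 in endothelial cells as well (log2 values). Slc16a3 had 3.90 to 5.96 CPM in urothelial cells, 11.5 to 37.6 CPM in myofibroblasts (2.05 ± 0.25, adjusted p = 8.99e-09) and 4.42 to 12.8 CPM in fibroblasts (0.64 ± 0.25, adjusted p = 0.0199). Its myofibroblast range lay apart, whereas the fibroblast call was lost with marker-score classes and without healthy 1 or acute 2. In macrophages it was higher by 1.25 ± 0.35. Ldha was higher in macrophages (0.57 ± 0.15) and endothelial cells (0.40 ± 0.16, a call lost under 7 alternatives, among them leaving out healthy 1, acute 1 or acute 2) and did not pass in fibroblasts (0.15 ± 0.15) or myofibroblasts (0.28 ± 0.15). Pkm was lower in fibroblasts, myofibroblasts, macrophages and endothelial cells, by -1.16, -0.93, -0.77 and -0.93 in that order. Eno1, which encodes enolase, was higher in macrophages (151.8 to 247.1 CPM against 60.6 to 116.0 CPM, 1.38 ± 0.16). It was also higher in fibroblasts (0.50 ± 0.15, lost without healthy 1) and NK and T cells (1.09 ± 0.22, lost with marker-score classes and without acute 2).

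Among the hypoxia targets, the collagen prolyl hydroxylases formed the clearest stromal difference. P4ha2 had 0.256 to 1.08 CPM in urothelial cells, 8.14 to 24.1 CPM in fibroblasts and 19.7 to 34.6 CPM in myofibroblasts, without overlap (4.60 ± 0.30 and 5.37 ± 0.31, adjusted p = 6.9e-15 and 4.4e-16). These folds rested on 95 UMIs in urothelial cells of all libraries, 196 in fibroblasts and 383 in myofibroblasts. P4ha1 had 5.002 to 8.98 CPM in urothelial cells, 32.6 to 71.5 CPM in fibroblasts and 44.0 to 85.1 CPM in myofibroblasts (2.87 ± 0.19 and 3.09 ± 0.20). It was higher in macrophages (1.86 ± 0.28) and endothelial cells (1.55 ± 0.37) too. The endothelial P4ha1 value rested on 32 UMIs, and its call was lost without healthy 1. P4ha2 was at 0 UMIs in 4 of 6 macrophage libraries and summed to 2 UMIs there, and did not pass the test in macrophages or endothelial cells.

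Taken over all layers, the urothelium held more of Hilpda, Egln3, Pdk1, Adm and Hif1a than the stroma. Hilpda had 632.7 to 1163 CPM in urothelial cells and 81.3 to 293.0 CPM in fibroblasts (-2.59 ± 0.23, adjusted p = 1.5e-11), and Egln3 34.4 to 56.1 CPM against 0.884 to 12.1 CPM (-3.03 ± 0.28, adjusted p = 3.5e-11). Hif1a had 228.7 to 307.3 CPM in urothelial cells and 49.95 to 260.5 CPM in fibroblasts, with the highest fibroblast value in chronic 2, and a log2 fold change of -1.90 ± 0.19. Pdk1 was lower by -1.62 ± 0.19 and Adm by -1.62 ± 0.22 in fibroblasts, and both were lower in macrophages (-1.02 ± 0.25 and -2.34 ± 0.29). With marker-score classes in place of clusters, Hif1a, Slc2a1 and Adm turned to 0.23, 0.15 and 0.51 in macrophages and, with Hk2 at 0.21, to 0.28, 0.05 and 0.73 in endothelial cells, whereas none of the fibroblast and myofibroblast calls turned. The macrophage calls of Hk1, Hilpda, Pdk1 and Mif were lost with these classes.

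Among the hypoxia targets, Ndrg1, Ddit4 and Bnip3 had endothelial ranges apart from those of the urothelium, with Bnip3 the lower one. How many genes of any kind had ranges apart was not counted. Ndrg1 had 135.5 to 384.9 CPM there against 46.6 to 89.3 CPM in urothelial cells (1.84 ± 0.24, adjusted p = 1.4e-07), and Ddit4 45.2 to 140.5 CPM against 10.8 to 33.2 CPM (2.32 ± 0.36, adjusted p = 3.4e-06). Bnip3 was lower, at 0 to 18.1 CPM against 21.7 to 37.4 CPM (-1.20 ± 0.34, adjusted p = 0.0036), a value that rested on 17 UMIs and a call lost with marker-score classes. Ddit4 was higher in myofibroblasts as well (0.83 ± 0.31, lost without healthy 1 or acute 1), Txnip in fibroblasts (0.66 ± 0.17), and Mif was lower in fibroblasts, myofibroblasts, macrophages and endothelial cells (-0.95, -0.90, -0.86 and -1.31). The dissociation-stress list was at 17794 to 29586 CPM in endothelial cells, 13608 to 37459 CPM in fibroblasts, 16120 to 40697 CPM in myofibroblasts and 16460 to 21751 CPM in macrophages against 10402 to 14108 CPM in urothelial cells, and its part in the cell type differences was not tested. The endothelial values come from 5 libraries, since healthy 2 held 15 such cells.

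**Figure D4:**
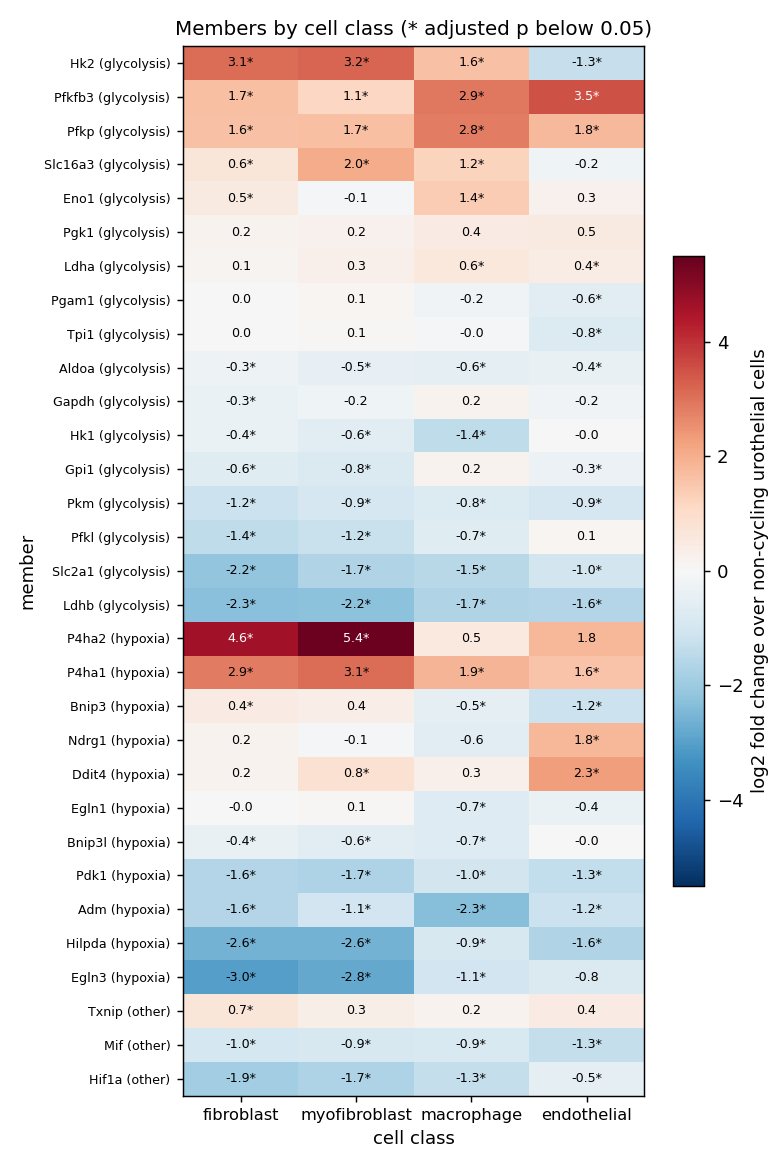
Log2 fold change of 31 members in fibroblasts, myofibroblasts, macrophages and endothelial cells over non-cycling urothelial cells, with color from blue (lower) to red (higher) and a star for an adjusted p below 0.05. P4ha2 reaches 5.37 in myofibroblasts, Hk2 is above 3 in both stromal classes, and Egln3, Hilpda and Ldhb are the deepest blue in fibroblasts.

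Fibroblasts and myofibroblasts differed in 2 of 31 members, 1 in each direction, where 7.7% of all genes were higher and 8.14% lower in fibroblasts. Eno1 was higher in fibroblasts, at 75.6 to 144.9 CPM against 50.4 to 121.1 CPM, in 6 of 6 libraries (0.60 ± 0.17, adjusted p = 0.013). It no longer passed without healthy 1 (0.50) or without the library block (0.58). Slc16a3 was higher in myofibroblasts, at 11.5 to 37.6 CPM against 4.42 to 12.8 CPM, in 6 of 6 libraries (-1.41 ± 0.27 for fibroblasts over myofibroblasts, adjusted p = 0.00019).

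Among the other pathway genes, 10 were higher and 20 lower in fibroblasts than in urothelial cells, of 42 tested, 11 and 19 in myofibroblasts, 7 and 20 in macrophages, 8 and 16 in endothelial cells and 5 and 8 in NK and T cells. Plod1, a lysyl hydroxylase of collagen, was higher by 2.85 ± 0.18 in fibroblasts, 3.53 ± 0.19 in myofibroblasts, 2.85 ± 0.24 in macrophages and 2.92 ± 0.28 in endothelial cells. Pdk4, another pyruvate dehydrogenase kinase, was lower by -3.00, -3.46 and -2.27 in the first 3 of these, and Slc16a7, a monocarboxylate carrier (MCT2), by -3.13, -3.45 and -2.79 in fibroblasts, myofibroblasts and endothelial cells. Cited2, which competes with HIF for its coactivator, was higher by 1.74 in fibroblasts, 2.41 in myofibroblasts and 3.91 in macrophages. Epas1, which encodes HIF-2α, was higher in endothelial cells by 3.48 ± 0.25, at 97.2 to 461.8 CPM against 15.5 to 28.9 CPM in urothelial cells. Between fibroblasts and myofibroblasts 4 were higher and 5 lower, with Nampt at -1.94, Bpgm at -0.95, G6pdx at 0.69 and Epas1 at 0.84.

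Injury moved no member past the threshold. Over 9 classes and 3 comparisons (acute against healthy, chronic against healthy and acute against chronic) 765 tests of members were made. Of these, 0 passed at an adjusted p of 0.05 in edgeR, with a smallest adjusted p of 0.0866, and 60 had an unadjusted p below 0.05. Per comparison, 0 to 5 of 24 to 32 members had such an unadjusted p, against 156 to 679 of 5177 to 13171 genes of any kind. The pooled shares were not compared. DESeq2 called 1. Few genes of any kind were called: 0% in most comparisons, and otherwise 0.193% (acute) and 0.121% (chronic) in cycling basal cells, 0.0536% and 0.0625% in fibroblasts, 0.0127% (acute) in myofibroblasts, and 0.0773% and 0.174% in endothelial cells, each against healthy. With 2 libraries per condition an exact permutation test cannot go below p = 0.333, so single values are described and not tested that way.

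The smallest adjusted p belonged to Ldhb in endothelial cells, chronic against healthy. It was at 72.2 CPM in healthy 1, 222.4 and 178.1 CPM in acute 1 and 2, and 596.8 and 460.7 CPM in chronic 1 and 2 (log2 fold change 2.89 ± 0.56, adjusted p = 0.0866, against 0.00923 in DESeq2, 0.0475 in edgeR scaled by library size only and 0.00685 in edgeR without the filter on low counts). The chronic libraries were the highest, and only 1 healthy library held enough endothelial cells. The summed urothelial markers of these same cells were at 1939 CPM in healthy 1 and 9980 and 10586 CPM in the chronic libraries, and their part in this difference was not tested.

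Ddit4, which stress hormones and low oxygen induce, passed no test between conditions with the filter on low counts and no library left out. In superficial cells it was at 8.97 and 10.1 CPM in healthy, 10.4 and 11.2 CPM in acute and 21.8 and 20.7 CPM in chronic libraries, and the chronic values lay above all others (chronic against healthy 1.15 ± 0.27, adjusted p = 0.555). In fibroblasts it was at 14.4 and 10.6 CPM, 32.7 and 20.1 CPM, and 56.1 and 24.4 CPM, so that acute and chronic ranges overlapped (1.90 ± 0.44, adjusted p = 0.504). In myofibroblasts it was at 35.4 and 12.9 CPM, 42.7 and 18.5 CPM, and 86.5 and 93.8 CPM (1.78 ± 0.57, adjusted p = 0.753). Without the filter on low counts, this difference passed, at 1.62 ± 0.44 (adjusted p = 0.0406, edgeR). In intermediate cells it was at 10.1 and 27.3 CPM, 15.4 and 14.8 CPM, and 30.1 and 35.0 CPM. Macrophages had 18.8 and 16.2 CPM, 13.02 and 18.0 CPM, and 45.5 and 35.3 CPM. In myofibroblasts, intermediate cells and macrophages the chronic values lay above the others. Some of these values rested on few UMIs per library: 3 to 14 in macrophages, 3 to 144 in fibroblasts and 10 to 195 in myofibroblasts. Basal cells, at 15.7 and 34.4 CPM in healthy and 27.7 and 43.5 CPM in chronic libraries, had overlapping ranges. Endothelial cells had the opposite order, with 134.7 CPM in healthy 1, 124.7 and 140.5 CPM in acute and 111.0 and 45.2 CPM in chronic libraries.

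The dissociation-stress list was also higher in chronic than in healthy stroma. In fibroblasts it was at 29104 and 23904 CPM in healthy, 33957 and 13608 CPM in acute and 37459 and 33281 CPM in chronic libraries, so that acute 1 lay above chronic 2. In myofibroblasts it was at 26213 and 22516 CPM, 24507 and 16120 CPM, and 33220 and 40697 CPM, with the chronic libraries above all others. In superficial cells, where chronic Ddit4 was above healthy, the list was at 9022 and 9157 CPM in chronic and 10056 and 8326 CPM in healthy libraries, 2 overlapping ranges. The part of dissociation in the stromal values was not tested.

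Pgk1, the phosphoglycerate kinase, was a reading of 1 library. It was at 77.5 to 114.4 CPM in every layer, stromal class, macrophages and endothelial cells of acute 2, and at 0 to 27.1 CPM in the same classes of the other 5 libraries, acute 1 among them. Summed over all cells it had 6138 UMIs in acute 2 and 148 to 309 UMIs in each of the others. The table of acute 2 listed 20180 genes, the most of any library, and alone held another Ensembl ID named Aldoa. Whether its gene annotation differed, and the part of that in the Pgk1 reading, was not tested. Pgk1-rs7, the near-identical copy of Pgk1, was listed with 3 to 9 UMIs in the healthy and chronic tables only. No acute difference is drawn from Pgk1.

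**Figure D5:**
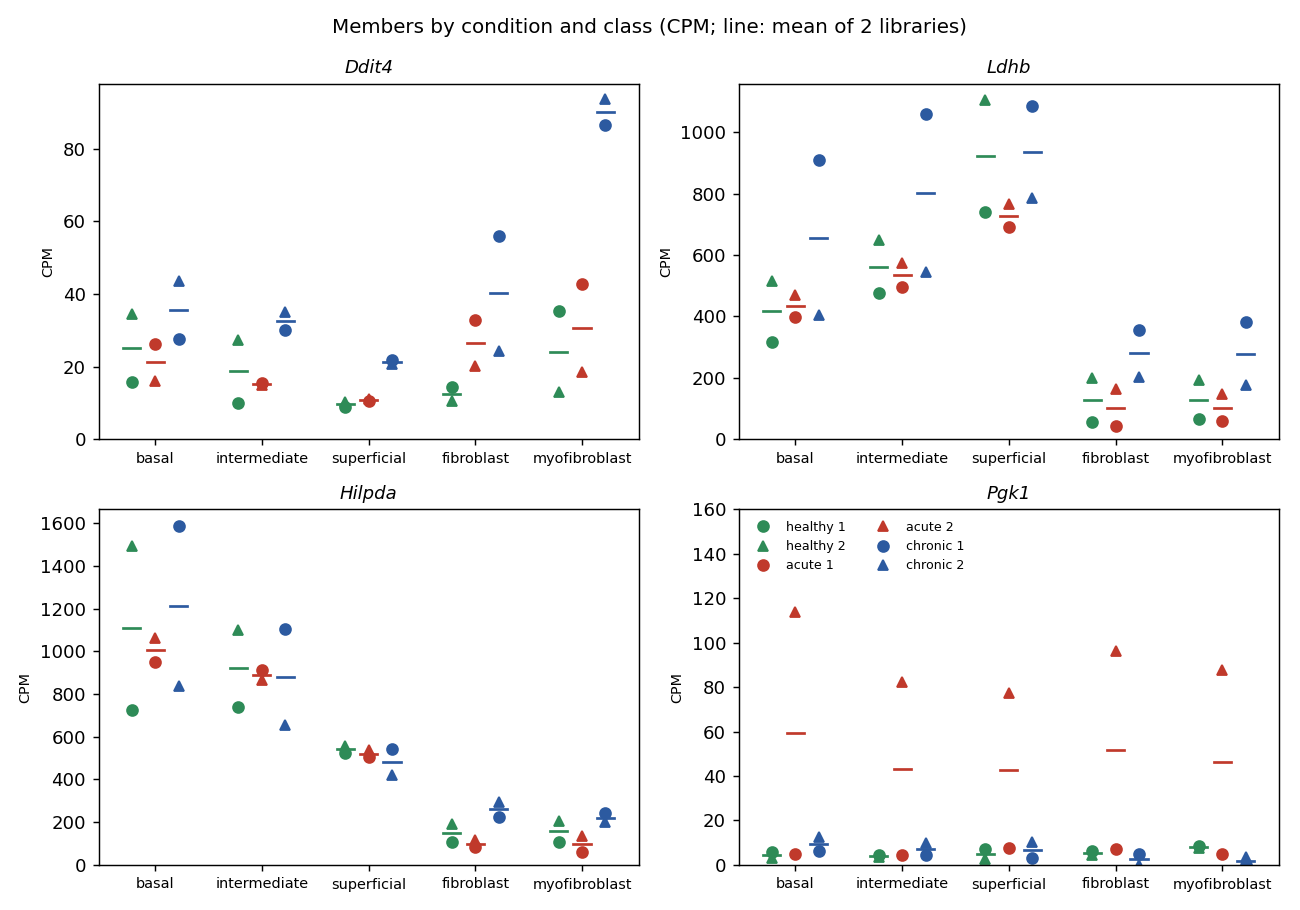
Level (CPM) of Ddit4, Ldhb, Hilpda and Pgk1 by condition in 5 classes, with 1 point per library and a line at the mean of 2 libraries. Chronic Ddit4 lies above healthy in superficial cells (21.8 and 20.7 against 8.97 and 10.1 CPM), and Pgk1 is high in acute 2 alone.

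Whether injury altered the difference between superficial and basal cells or that between stroma and urothelium was tested as an interaction, in which shifts of a whole library cancel. Of 190 tests of members, 0 passed in edgeR and 20 had an unadjusted p below 0.05. For superficial minus basal these were 2 (acute) and 3 (chronic) of 31 members, against 846 and 743 of 11932 genes. For fibroblasts minus urothelium they were 0 and 7 of 32, against 435 and 992 of 13684 genes. For myofibroblasts minus urothelium they were 4 and 4 of 32, against 361 and 819 of 13811 genes. The share of all genes called was 0.109% (acute) and 0.0503% (chronic) for superficial minus basal, 0.0438% and 0.0658% for fibroblasts minus urothelium, and 0.00724% and 0.0145% for myofibroblasts minus urothelium. The smallest adjusted p, 0.245, was that of Adm, whose fall from basal to superficial cells was larger by a log2 value of -0.89 ± 0.24 in acute than in healthy libraries. Adm was at 141.5 and 183.4 CPM in healthy and 168.5 and 314.3 CPM in acute basal cells, and at 27.2 and 24.8 CPM and 16.0 and 27.7 CPM in their superficial cells. Of the other pathway genes 1 passed: for Pdk4 the superficial-to-basal difference was lower by -1.42 ± 0.26 in acute than in healthy libraries (adjusted p = 0.0271). Pdk4 was at 110.6 and 123.7 CPM in healthy and 137.7 and 221.1 CPM in acute basal cells, and at 71.5 and 40.1 CPM and 26.8 and 38.1 CPM in the superficial cells of the same libraries.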

How the data were processed

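The authors aligned droplet-based 3′ reads to mm10 with Cell Ranger, per the labels, and deposited raw UMI counts per gene and cell, without normalization, as 1 table per library. The tables listed 15065 to 20180 genes, acute 2 the most, and the table of healthy 1 ends mid-line. The 14450 genes listed in all tables were therefore used, and 14347 of them, without mitochondrial and ribosomal genes, for CPM and tests. Barcodes needed more than 500 genes and less than 10% mitochondrial UMIs, doublets called at 0.8% per 1000 cells were removed, and a doublet-rich cluster and sub-cluster were dropped (1935 cells, called doublets among them). Libraries were integrated with sctransform 0.4.2 and Seurat 5.3.0 (3000 features, without the members) and clustered with scanpy 1.11.5. Cycling cells lay over 2 MADs above the median of an S or G2/M score. In each library the counts of a class with 20 or more cells were added up and fitted in edgeR 4.0.16 (filterByExpr, TMM, quasi-likelihood F test, Benjamini-Hochberg at 0.05), with library as a block within libraries, in R 4.3.3. DESeq2 1.42.0 was an alternative. The edgeR fits of acute against healthy in intermediate cells and of superficial against basal cells were also run on simulated counts.

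The members and lists were chosen with earlier results of these data known. All 32 members are named, and of the other pathway genes at most the 2 largest rises and 2 largest falls per comparison with an adjusted p below 0.05 and a mean of at least 20 CPM, leaving out 1 gene that is not reported here. Vegfa, Epas1, Plod1, Pdk4 and Cited2 values beyond that rule are the same genes followed into further classes. Depth is counting depth only: intervals were not attached to CPM values, whose spread over libraries is given. Replicate numbers were not used as pairs in the main fits. Deviations of same-numbered libraries correlated at 0.122 to 0.411 for healthy and acute. They correlated at -0.301 to -0.0147 for healthy and chronic and at -0.162 to -0.0412 for acute and chronic. Whether the libraries pair in another order was not tested.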

Additional observations from a re-analysis of the deposited data

Results flagged for a closer look

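In groups of 4 to 10 libraries, 192 sets of member values (1 member in 1 class, over 6 libraries) were examined for a library whose gap to the nearest other exceeded Dixon's 95% critical value, and 27 had one. The critical value is passed in about 1 in 20 independent sets drawn from 1 group. These sets share the same 6 libraries and repeat members over classes, so the count cannot be held against that rate. The groups pool the 3 conditions, since each condition holds 2 libraries.

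Acute 2 was apart in 7 sets. Pgk1 was high in it at 114.0 CPM in basal, 82.1 CPM in intermediate and 77.5 CPM in superficial cells, 96.4 CPM in fibroblasts, 87.9 CPM in myofibroblasts and 88.9 CPM in macrophages, and Hk1 was low in its basal cells at 56.0 CPM.

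Chronic 1 was apart in 9 sets, all of them high and all of glycolysis genes. In basal cells it had 298.1 CPM of Pgam1, 151.0 CPM of Eno1, 1572 CPM of Pkm and 908.5 CPM of Ldhb. In intermediate cells it had 390.9 CPM of Ldha and 1059 CPM of Ldhb, in myofibroblasts 801.4 CPM of Pkm, and in macrophages 247.1 CPM of Pgam1 and 939.5 CPM of Pkm. The other chronic library was not apart in these sets.

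Healthy 1 was high for Ndrg1 in basal cells (177.9 CPM), Pdk1 in superficial cells (41.8 CPM), P4ha2 in fibroblasts (24.1 CPM) and Slc16a3 in myofibroblasts (37.6 CPM). Acute 1 was high for Gapdh in fibroblasts (1274 CPM) and for Gpi1 (399.3 CPM) and Egln3 (43.4 CPM) in macrophages, and low for Txnip in myofibroblasts (41.1 CPM).

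Chronic 2 was high in fibroblasts, of which it held 34, for Slc2a1 (73.3 CPM), Pfkl (57.0 CPM) and Hif1a (260.5 CPM). Its fibroblasts also had the highest summed urothelial markers of the 6 libraries, at 5559 CPM or 35.7% of the urothelial level, and their part in these values was not tested.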

How the results depend on the processing

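Of 65 member calls between layers 34 held under every alternative, of 96 between cell types 56, and of 16 between cycling states 0. Layer calls repeated under the alternatives kept direction and threshold in 895 of 975 cases and never turned, and cell type calls in 1289 of 1440.

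With condition in place of the library block, members called fell to 7, 12 and 16 for intermediate against basal, superficial against intermediate and superficial against basal cells, to 0 and 0 for cycling basal and intermediate cells, to 2 for NK and T cells and to 1 for fibroblasts against myofibroblasts. NK and T cells had 4 calls with RLE factors and 3 each with DESeq2, library size only and the stricter cell filter. DESeq2 gave 7 and 2 for cycling basal and intermediate cells, and marker-score classes gave 12 for macrophages. Without a filter on low counts, 1 member each was called: Pgk1 for acute against healthy in cycling basal and intermediate cells, myofibroblasts and macrophages and for acute against chronic in cycling intermediate cells and myofibroblasts, and, for chronic against healthy, Ddit4 in myofibroblasts and Ldhb in endothelial cells. DESeq2 and library size only gave 1 each for the last.

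Calls turned under marker-score classes for Adm in cycling intermediate cells (-0.26), Hif1a (0.23), Slc2a1 (0.15) and Adm (0.51) in macrophages, Hk2 (0.21), Hif1a (0.28), Slc2a1 (0.05) and Adm (0.73) in endothelial cells and Slc2a1 (0.51) in NK and T cells, and for Gpi1 in endothelial cells with library size only (0.01). The causes were not tested.

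Summed in place of averaged on the log2 scale, the glycolysis difference was 0.038 (averaged -0.585) for superficial minus basal, -0.083 (-0.335) for intermediate minus basal, -0.312 (-0.027) for fibroblasts, -0.271 (0.002) for myofibroblasts, -0.260 (0.070) for macrophages and -0.100 (0.099) for endothelial cells minus urothelium and 0.038 (-0.100) for cycling minus non-cycling basal cells. The hypoxia difference was -1.141 (-0.223), -1.132 (-0.077), -0.940 (-0.579), -0.158 (0.051) and -0.214 (0.027) for the last 5. A sum follows the most abundant members.

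Leaving out 1 library gave 14 to 18, 20 to 22 and 22 to 26 members called for the 3 layer steps in the order above, 5 to 14 and 3 to 4 for cycling, 20 to 24 for fibroblasts, 20 to 22 for myofibroblasts and for macrophages, 14 to 21 for endothelial cells, 0 to 8 for NK and T cells and 2 to 3 for fibroblasts against myofibroblasts. Condition and interaction comparisons gave 0 to 1, or 0 to 2 for chronic against healthy in endothelial cells and for fibroblasts minus urothelium. These fits assume that a lone library varies like the other groups. The interactions that passed were Ddit4 without healthy 1 (2.115 in acute fibroblasts, 2.564 in chronic myofibroblasts), Ndrg1 (1.90, acute superficial minus basal), Hk2 (1.49) and Egln3 (2.19, both chronic fibroblasts) without healthy 2, and Adm (-1.26, acute myofibroblasts) without acute 1. In endothelial cells, chronic against healthy, Ldhb passed without acute 1, acute 2 or chronic 2, and Adm without acute 1 (3.08) or acute 2 (3.05). Without acute 1, Pgk1 was called in 15 comparisons. With the replicate block, which pairs libraries by their given numbers only, 0 members were called in the 27 condition comparisons, as without it.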
